A study of Mus musculus with 24 samples.

Results

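GABA-A receptor subunit genes were examined by the H3K4me3 reads at their promoters. The 7 genes chosen were Gabra2, Gabra4, Gabra5 and Gabra6, which encode alpha subunits, Gabrb1 and Gabrb2, which encode beta subunits, and Gabrd, which encodes the delta subunit. A gene was represented by each region of the deposited H3K4me3 region list that overlapped a transcription start site (TSS) of it in GENCODE release M1 on mm9. Of the 17993 regions, 13404 overlapped a TSS of any gene and 6 overlapped a TSS of the chosen genes, with 1 region each at Gabra2, Gabra4, Gabra5, Gabrb1, Gabrb2 and Gabrd. No region of the list lay at Gabra6, so no count was available for this gene.

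GABA-A receptors are pentameric chloride channels that open when GABA binds and that carry most of the fast inhibition in the adult forebrain. Most of these receptors are assembled from alpha and beta subunits together with a gamma or a delta subunit. The alpha subunit largely determines where on the neuron such a receptor sits. Receptors with the alpha2 subunit cluster at synapses, including those on the axon initial segment. Receptors with the delta subunit, which pairs with alpha4 in the forebrain and with alpha6 in cerebellar granule cells, lie outside synapses and carry tonic inhibition, and many receptors with alpha5 are also extrasynaptic and are known from pyramidal neurons of the hippocampus and the deep cortical layers. H3K4me3 is a histone mark found around the TSSs of active genes.

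Mice of 2 lines carrying FLAG-tagged histone H2B (H2B-FLAG) were compared by 2 kinds of H3K4me3 ChIP-Seq of the cerebral cortex. In single ChIP-Seq, chromatin of all cells was precipitated with anti-H3K4me3 antibody, and in tandem ChIP-Seq (tChIP-Seq) it was first purified with anti-FLAG antibody. The groups were RosaH2B-FLAG single ChIP-Seq, RosaH2B-FLAG tChIP-Seq, Camk2aH2B-FLAG single ChIP-Seq and Camk2aH2B-FLAG tChIP-Seq, with 3 libraries each, and each lysate came from 2 animals. All animals were C57BL/6 mice with an H2B-FLAG cassette at Rosa26 under the CAG promoter, and the labels give the genotypes as Rosa CAG-H2B-FLAG and as Rosa26 CAG-floxed-pA-H2B-FLAG/CaMKCreERT2. In RosaH2B-FLAG mice, Vasa-Cre had opened the cassette in the germ line, so that nearly all cells of these adult heterozygotes carried the tag. In Camk2aH2B-FLAG mice, which were double heterozygous males, CaMK-CreERT2 opened it after tamoxifen at 1 mg per day for 5 days at 8 weeks of age, and tissue was taken 1 month later. The tagged cells of this line are the Camk2a-positive neurons, which are mainly excitatory, and cells in which recombination failed remained untagged. The tamoxifen treatment and the line cannot be told apart.

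Counts summed over the regions ranged from 6316125 to 8644574 per library in RosaH2B-FLAG single ChIP-Seq, from 1457261 to 1828371 in RosaH2B-FLAG tChIP-Seq, from 4063200 to 4233144 in Camk2aH2B-FLAG single ChIP-Seq and from 2709729 to 3049130 in Camk2aH2B-FLAG tChIP-Seq. The RosaH2B-FLAG tChIP-Seq libraries were the shallowest, and the lowest count of any chosen region, 35 at Gabra5, was found there. Of 5 genes that mark the cortex, Emx1, Emx2, Neurod6 and Lhx2 had a region at a TSS, and Tbr1 had none in the list. Of 8 genes of the cerebellum, only En2 and Barhl2 had a region.

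The regions at the chosen promoters were wider than the median region of the list, which also holds regions at no TSS. They were wider than 67.0% of all regions at Gabrd and than 95.4% at Gabrb2. Their widths were 4132 bp at Gabra2, 3984 bp at Gabra4, 2350 bp at Gabra5, 2816 bp at Gabrb1, 4358 bp at Gabrb2 and 2256 bp at Gabrd, while the median over all regions was 1774 bp. Each region reached further into the gene than upstream of it. At Gabra4, for example, it extended 3473 bp downstream of the TSS and 510 bp upstream, and at Gabrb2 it extended 3642 bp downstream of the first TSS and 715 bp upstream and held 4 TSSs of this gene. No other region lay in the body of any of the 7 genes.

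In mm9, the regions lay at chr5:71484084-71488215 for Gabra2 on the minus strand, chr5:72046074-72050057 for Gabra4 on the minus strand, chr5:72090701-72093516 for Gabrb1 on the plus strand, chr7:64763518-64765867 for Gabra5 on the minus strand, chr11:42232544-42236901 for Gabrb2 on the plus strand and chr4:154770668-154772923 for Gabrd on the minus strand. The regions of Gabra4 and Gabrb1, which point away from each other, were 40643 bp apart. No TSS of another gene in GENCODE M1 lay in any of the 6 regions. Gabra6, on the minus strand of chromosome 11 in the same cluster as Gabrb2, ran from 42119939 to 42134574, and the nearest region was that of Gabrb2, 97970 bp from it.

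Promoter sequences, from 250 bases before to 50 after the start, were taken from RefSeq (GRCm38.p6), which gave 9 entries for 6 of the 7 genes, and Gabrd had no entry. Each entry matched mm9 exactly and at 1 place. The promoters of Gabra5 and Gabra2 are shown because these genes had the largest and the smallest difference between the lines in tChIP-Seq, those of Gabra4 and of the upstream start of Gabrb1 because both fell into the Gabra4 region, and that of Gabra6 because no region lay there. Each is written 5′ to 3′ in the direction of the gene, with the CpG dinucleotides in capitals, and lies in mm9 at chr7:64765380-64765679 (minus strand, Gabra5), chr5:71487039-71487338 (minus strand, Gabra2), chr5:72049498-72049797 (minus strand, Gabra4), chr5:72048910-72049209 (plus strand, Gabrb1) and chr11:42134525-42134824 (minus strand, Gabra6).
Gabra5: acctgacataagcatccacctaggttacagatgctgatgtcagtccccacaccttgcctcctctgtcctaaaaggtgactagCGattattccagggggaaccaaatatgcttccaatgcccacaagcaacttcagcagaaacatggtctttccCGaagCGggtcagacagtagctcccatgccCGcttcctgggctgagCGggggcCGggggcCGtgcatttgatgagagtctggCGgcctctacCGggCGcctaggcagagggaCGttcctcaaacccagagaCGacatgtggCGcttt
Gabra2: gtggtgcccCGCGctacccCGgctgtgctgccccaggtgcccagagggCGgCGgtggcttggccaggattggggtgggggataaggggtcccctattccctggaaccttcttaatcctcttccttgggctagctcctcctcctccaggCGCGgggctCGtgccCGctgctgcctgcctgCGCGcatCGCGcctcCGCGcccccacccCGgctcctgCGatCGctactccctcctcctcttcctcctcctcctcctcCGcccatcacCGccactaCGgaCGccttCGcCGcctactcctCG
Gabra4: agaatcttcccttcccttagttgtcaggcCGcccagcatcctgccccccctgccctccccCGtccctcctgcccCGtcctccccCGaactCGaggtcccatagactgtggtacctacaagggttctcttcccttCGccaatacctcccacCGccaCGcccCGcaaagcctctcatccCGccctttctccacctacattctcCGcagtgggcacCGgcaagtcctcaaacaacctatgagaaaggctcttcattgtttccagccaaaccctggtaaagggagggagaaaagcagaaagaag
Gabrb1, upstream start: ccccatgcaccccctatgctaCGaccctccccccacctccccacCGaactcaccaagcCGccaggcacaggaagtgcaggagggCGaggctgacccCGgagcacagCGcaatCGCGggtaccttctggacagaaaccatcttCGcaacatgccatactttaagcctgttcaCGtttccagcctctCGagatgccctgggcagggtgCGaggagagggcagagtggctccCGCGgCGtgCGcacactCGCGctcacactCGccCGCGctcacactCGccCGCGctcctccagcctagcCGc
Gabra6: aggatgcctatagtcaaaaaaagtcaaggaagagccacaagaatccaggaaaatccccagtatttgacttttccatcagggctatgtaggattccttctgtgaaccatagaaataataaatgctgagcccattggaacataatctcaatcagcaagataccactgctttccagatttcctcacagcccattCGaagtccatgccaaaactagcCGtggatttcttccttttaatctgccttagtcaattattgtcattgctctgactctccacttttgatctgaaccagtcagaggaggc

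The promoter of Gabra6 was the poorest of these in CpG. It held 2 CpG dinucleotides in 300 bases with 42.0% G+C, where the median of all 32851 promoter entries was 7. The promoter of Gabra5 held 13 and that of Gabra4 held 12. The promoter of Gabra2 and the upstream promoter of Gabrb1 each held 25, a count above that of 81.6% of all entries. The other Gabrb1 entry, which lies in the Gabrb1 region, held 9, and the 3 entries of Gabrb2 held 11, 9 and 9. The upstream Gabrb1 start of RefSeq lay 387 bp from the Gabra4 start on the opposite strand and is no TSS in GENCODE M1, so reads of the Gabra4 region cannot be assigned to one of these starts.

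**Figure D1:**
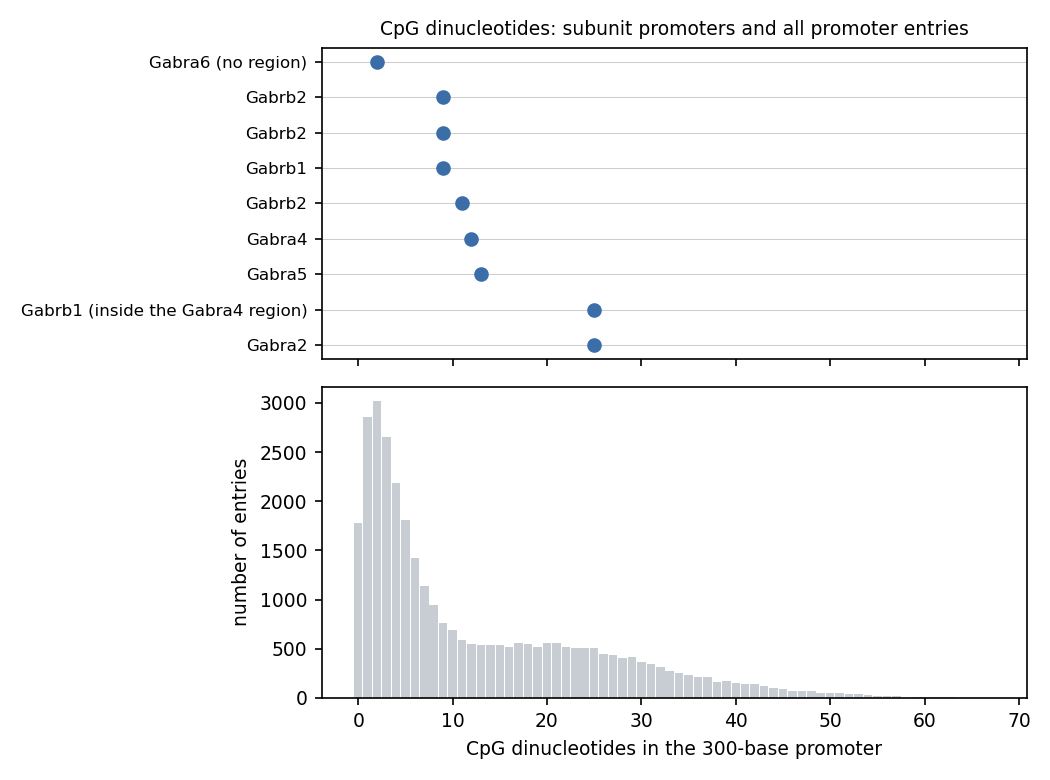
CpG dinucleotides in the 300-base promoter entries of the chosen genes (above, 1 point per RefSeq entry) and in all 32851 entries (below, number of entries per CpG count). Gabra6, with 2, lies in the CpG-poor peak of the distribution, and the other entries hold between 9 and 25.

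A few motifs were searched on both strands of these promoters. TATAAA was found only in the first Gabrb2 entry, at position −30 from its start, and in 13.6% of all entries. CCAAT was found in the entries of Gabra2, Gabra4, Gabra5 and Gabra6 and in the second of Gabrb2, and in 37.4% of all entries. GGGCGG was found at 2 places each in Gabra2 and Gabra4 and at 1 in the first Gabrb2 entry, and in 35.7% of all entries. No match to the cAMP response element TGACGTCA or to TTCAGCACC and GGACAGC, the left and right parts of the RE1 element, was found in the 9 entries, and these were found in 1.79%, 0.371% and 6.56% of all entries. No match overlapped another.

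The first question was whether the chosen promoters carried a different level of H3K4me3 in Camk2a-positive neurons than in cells at large, which the tChIP-Seq libraries of the 2 lines compare. H3K4me3 was higher in Camk2aH2B-FLAG at all 6 regions. The largest difference was at Gabra5, 2.98-fold, and the smallest at Gabra2, 1.43-fold. The test was edgeR's quasi-likelihood test with Benjamini-Hochberg adjustment over all 17993 regions, and a region was called where the adjusted p was under 0.01. The background was high, since 31.6% of all regions were called, 17% as higher in Camk2aH2B-FLAG and 14.6% as lower. The median log2 fold change of the 6 regions was 0.83 and that of all regions was −0.00. Levels are given as CPM, the reads of a region per 1000000 reads on all regions of its library, after TMM normalization over the 12 libraries.

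Among the extrasynaptic subunits, Gabra5 had 71.2, 76.5 and 72.2 CPM in the Camk2aH2B-FLAG tChIP-Seq libraries and 26.1, 24.5 and 23.0 CPM in those of RosaH2B-FLAG. The groups did not overlap, and the lowest Camk2aH2B-FLAG library was far above the highest RosaH2B-FLAG library. The log2 fold change was 1.58 (SE 0.125, n = 3 libraries per group, edgeR adjusted p = 5.8e-19), which ranked 171 of 17993 regions from the highest. Gabrd, the delta subunit, had 85.3, 82.6 and 86.6 CPM in Camk2aH2B-FLAG and 42.3, 35.8 and 45.9 CPM in RosaH2B-FLAG. These libraries were also apart, and the log2 fold change was 1.05 (SE 0.107, edgeR adjusted p = 5.08e-14). Gabra4, the forebrain partner of the delta subunit, had 124, 139 and 131 CPM in Camk2aH2B-FLAG and 77.2, 69.8 and 79.4 CPM in RosaH2B-FLAG. The 3 Camk2aH2B-FLAG libraries were again all above the others, and the log2 fold change was 0.80 (SE 0.083, edgeR adjusted p = 9e-14).

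Gabra2, the synaptic alpha subunit, had 96.5, 116 and 94.3 CPM in Camk2aH2B-FLAG tChIP-Seq and 80.9, 69.2 and 63.0 CPM in RosaH2B-FLAG. The groups did not overlap, but the second Camk2aH2B-FLAG library stood above the other two. The log2 fold change was 0.52 (SE 0.093, edgeR adjusted p = 2.45e-06). Of the beta subunits, Gabrb1 had 87.3, 92.4 and 89.9 CPM against 53.2, 59.0 and 55.1 CPM, and its libraries varied little within either group. Its log2 fold change was 0.69 (SE 0.096, edgeR adjusted p = 2.91e-09). Gabrb2 had 140.1, 146 and 132 CPM against 72.5, 87.7 and 70.2 CPM. Its groups were also apart, with a log2 fold change of 0.86 (SE 0.083, edgeR adjusted p = 3.05e-15).

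**Figure D2:**
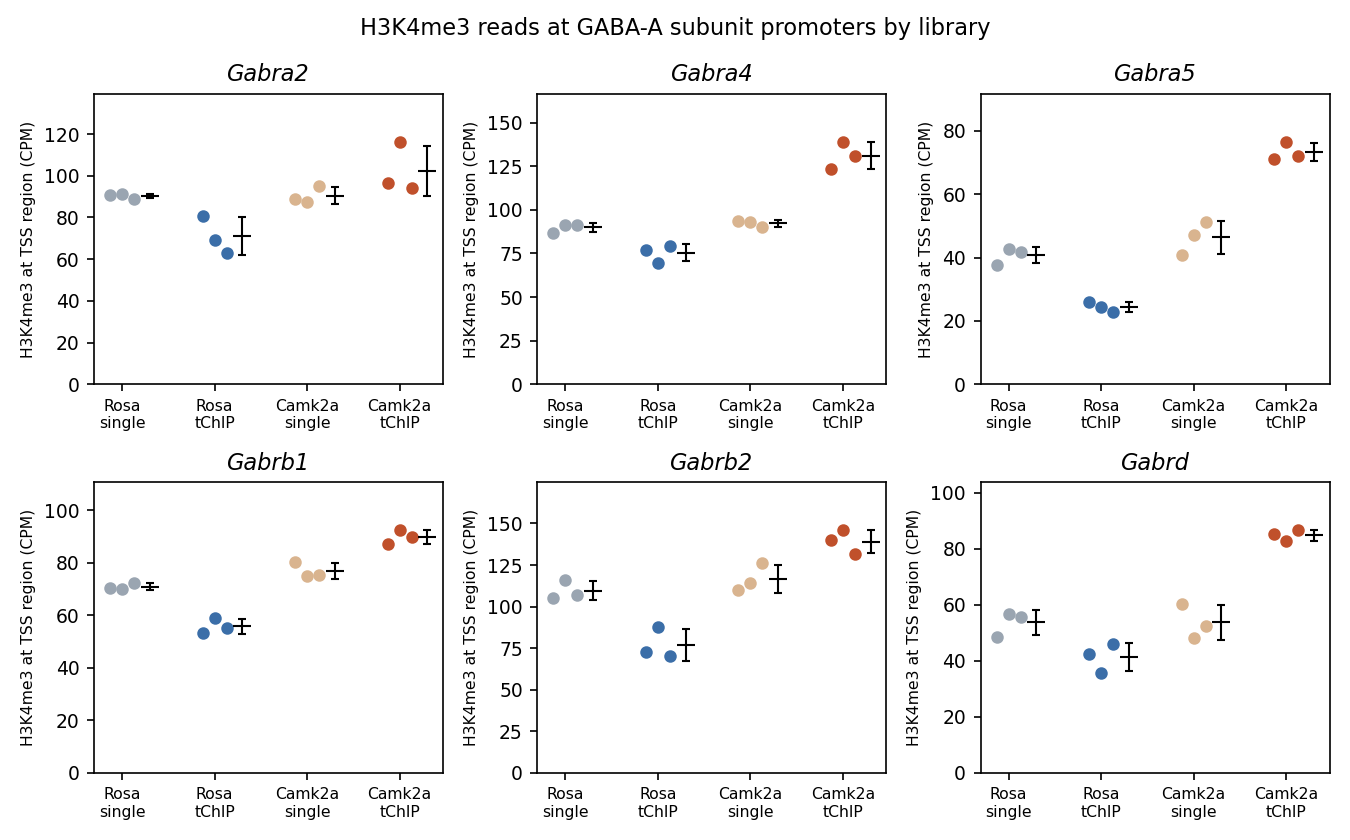
H3K4me3 at the 6 chosen promoters in CPM (y axes from 0, 1 panel per gene), with 1 point per library, and the mean and SD of the 3 libraries of each group beside them. In each panel the Camk2aH2B-FLAG tChIP-Seq libraries lie above all RosaH2B-FLAG tChIP-Seq libraries, with the widest separation at Gabra5, where the means are 73.3 and 24.5 CPM.

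The 6 regions being apart in this direction is set beside 24.8% of all regions, in which the 3 Camk2aH2B-FLAG libraries were above the 3 of RosaH2B-FLAG. In bulk chromatin, a larger share of cells that carry the mark at a gene and more of the mark per cell cannot be told apart. Scaling by library totals alone turned the balance over all regions, from 3062 higher and 2620 lower to 2570 higher and 3315 lower, and all 6 chosen regions were still called higher.

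The same lines were compared in single ChIP-Seq, where chromatin of all cortical cells was taken. None of the 6 regions was called by edgeR, where 2.15% of all regions were called, 0.928% higher and 1.22% lower in Camk2aH2B-FLAG. At an unadjusted p under 0.05, 1 of the 6 passed, Gabra5, with a fold change above 0. Such a p was found in 22% of all regions in either direction and in 10.6% in this direction. DESeq2 called none of the 6 at an adjusted p under 0.01. The log2 fold changes lay between −0.01 and 0.18. Gabra5 had 40.9, 47.2 and 51.1 CPM in Camk2aH2B-FLAG and 37.8, 42.8 and 41.7 CPM in RosaH2B-FLAG. The groups overlapped, and the log2 fold change was 0.18 (SE 0.082, edgeR adjusted p = 0.169). Gabrb1 was the single region whose libraries were apart, with 80.2, 74.9 and 75.5 CPM in Camk2aH2B-FLAG and 70.4, 70.0 and 72.5 CPM in RosaH2B-FLAG. Such a separation in this direction was found in 12.3% of all regions, and the log2 fold change was 0.12 (SE 0.062, edgeR adjusted p = 0.259). Gabrd had 60.3, 48.2 and 52.6 CPM against 48.7, 56.6 and 55.8 CPM, and Gabra2 had 88.6, 87.6 and 95.2 CPM against 90.7, 91.0 and 89.0 CPM. Both overlapped widely, with log2 fold changes of −0.01 (SE 0.075) for Gabrd and −0.00 (SE 0.056) for Gabra2. Scaling by library totals alone moved the calls over all regions from 167 higher and 219 lower to 194 higher and 57 lower, with none of the 6 among them.

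**Figure D3:**
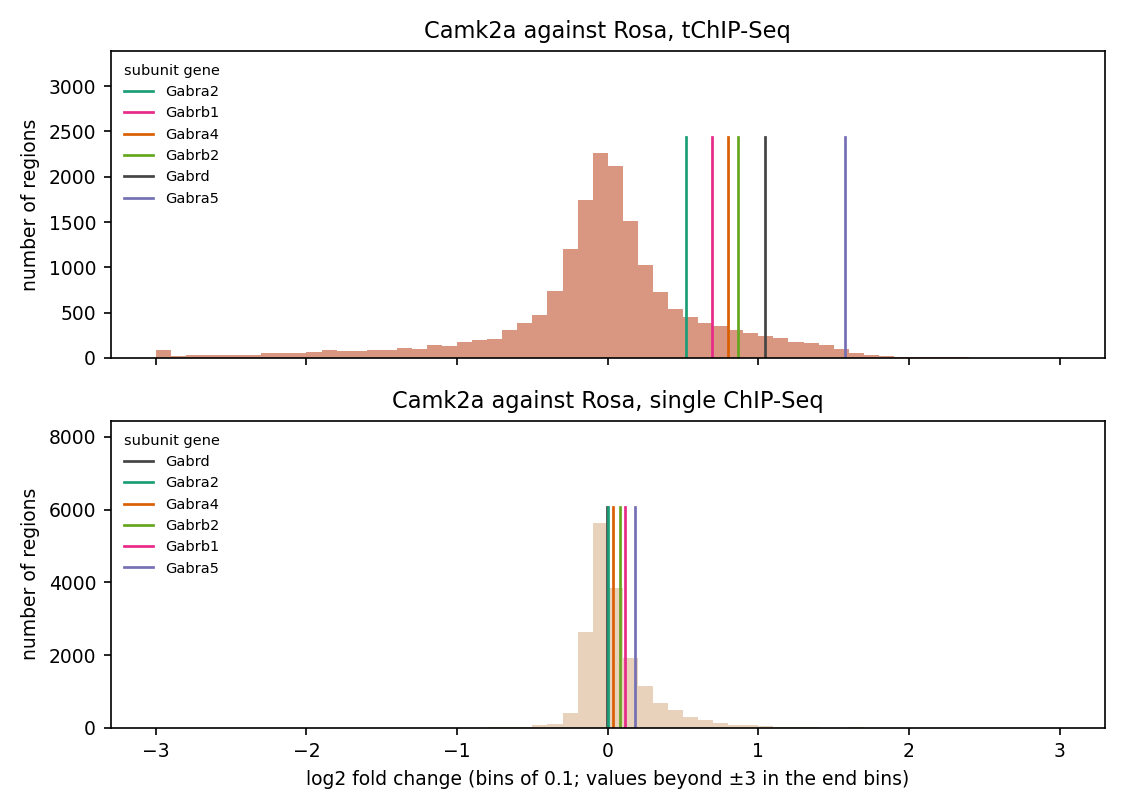
Number of regions by log2 fold change of Camk2aH2B-FLAG against RosaH2B-FLAG, in tChIP-Seq (above) and in single ChIP-Seq (below), with vertical lines at the 6 chosen promoters. In tChIP-Seq the lines stand in the right shoulder, from 0.52 at Gabra2 to 1.58 at Gabra5, and in single ChIP-Seq they stand in the centre, between −0.01 and 0.18.

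Whether the difference between the lines itself differed between the 2 kinds of ChIP-Seq was tested by the interaction over the 12 libraries. It was called at all 6 regions with a value above 0. Over all regions, 26.9% were called, 13.7% above 0 and 13.2% below. The largest interaction was at Gabra5, with a log2 value of 1.39 (SE 0.156, edgeR adjusted p = 1.45e-15), followed by Gabrd with 1.04 (SE 0.133, edgeR adjusted p = 1.67e-12). The smallest was at Gabra2, with 0.51 (SE 0.107, edgeR adjusted p = 2.04e-05). Gabrb2, Gabra4 and Gabrb1 had log2 values of 0.77, 0.76 and 0.57. With library totals alone, the calls over all regions moved from 2466 higher and 2375 lower to 1894 higher and 2970 lower, and the 6 regions remained among those higher.

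The effect of the FLAG step was then examined within each line. These comparisons share their libraries with the comparisons of the lines above. The authors also found loci that differed in this way in RosaH2B-FLAG. They name possible biases, such as one towards longer DNA or an effect of the tag, and therefore compared mainly the tChIP-Seq data of the lines. The part of such biases in the results below was not tested. In RosaH2B-FLAG, where nearly all cells carried the tag, all 6 regions fell from single ChIP-Seq to tChIP-Seq. Over all regions, 47.2% were called, 22.5% as lower and 24.7% as higher. Gabra5 was 37.8, 42.8 and 41.7 CPM in single ChIP-Seq and 26.1, 24.5 and 23.0 CPM in tChIP-Seq, and these groups were well apart. Its log2 fold change was −0.72 (SE 0.133, edgeR adjusted p = 3.38e-07). Gabrb2 was 105, 116 and 107 CPM in single ChIP-Seq and 72.5, 87.7 and 70.2 CPM in tChIP-Seq. It was also lower in every library, with a log2 fold change of −0.51 (SE 0.077, edgeR adjusted p = 3.32e-10). Gabrd, Gabrb1, Gabra2 and Gabra4 had log2 fold changes of −0.37, −0.34, −0.32 and −0.24, with edgeR adjusted p between 0.000251 and 0.00554. Their libraries were apart as well, as were those of 32.1% of all regions in this direction.

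These 4 smaller calls in RosaH2B-FLAG depended on single libraries and on the settings. The call of Gabra4 was lost without RosaH2B-FLAG single ChIP-Seq replicate 2 or 3 or tChIP-Seq replicate 1 or 2 (log2 fold changes from −0.20 to −0.27), that of Gabrd without single ChIP-Seq replicate 2 (−0.32) or tChIP-Seq replicate 2 (−0.29), that of Gabrb1 without tChIP-Seq replicate 1 (−0.30) and that of Gabra2 without tChIP-Seq replicate 3 (−0.25). The call of Gabra4 was also lost with DESeq2 (adjusted p = 0.0204) and with a minimum of 10 counts in every library (edgeR adjusted p = 0.0178), which left 5 regions each. With library totals alone, 2 of the 6 regions, Gabra5 and Gabrb2, were called, and the calls over all regions moved from 4439 higher and 4046 lower to 5298 higher and 2522 lower. In the same comparison, all 4 regions at excitatory neuron genes were lower and all 5 at astrocyte genes were higher in tChIP-Seq. Of 6 regions at inhibitory neuron genes, 3 were higher and none lower. Of 4 at oligodendrocyte genes, 2 were lower and none higher, and of 4 at endothelial genes, 2 were higher and none lower. Over all regions, 24.7% were called higher and 22.5% lower. The part of these changes in the result was not tested.

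In Camk2aH2B-FLAG, where only Camk2a-positive neurons carried the tag, 5 of the 6 regions rose from single ChIP-Seq to tChIP-Seq and none fell. Over all regions, 47.9% were called, 25.3% as higher and 22.6% as lower. The libraries of the 5 regions were apart, as were those of 31.1% of all regions in this direction. Gabrd and Gabra5 each had a log2 fold change of 0.66 (SE 0.081 and 0.087, edgeR adjusted p = 5.51e-13 and 1.6e-11). Gabra4 rose from 93.5, 93.1 and 90.0 CPM to 124, 139 and 131 CPM, and its libraries were far apart, with a log2 fold change of 0.51 (SE 0.063, edgeR adjusted p = 1.2e-12). The changes of the beta subunits were smaller, 0.25 for Gabrb2 (SE 0.059, edgeR adjusted p = 9.49e-05) and 0.22 for Gabrb1 (SE 0.072, edgeR adjusted p = 0.00523). The call of Gabrb1 was lost without single ChIP-Seq replicate 2 or 3 or tChIP-Seq replicate 2 or 3 of this line (log2 fold changes from 0.20 to 0.22) and with DESeq2 (adjusted p = 0.0532). Gabra2 had a log2 fold change of 0.18 (SE 0.068, edgeR adjusted p = 0.0203) and was not called. Its single ChIP-Seq and tChIP-Seq libraries overlapped, and without tChIP-Seq replicate 3 it was called, with 0.23, while without replicate 2 its value was 0.07. In the same comparison all 4 regions at excitatory neuron genes were higher in tChIP-Seq, with log2 fold changes from 0.36 to 0.56, and their summed level was between 397 and 421 CPM in single ChIP-Seq and between 534 and 540.2 CPM in tChIP-Seq. All 5 regions at astrocyte genes were lower, from −2.01 to −0.87, with sums between 229 and 252 CPM against 92.8 and 97.1 CPM. All 4 at endothelial genes were lower as well. Of 4 at oligodendrocyte genes, 3 were lower and 1 was higher. Of 6 at inhibitory neuron genes, 2 were lower and 1 was higher. The part of these changes in the result was not tested.

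**Figure D4:**
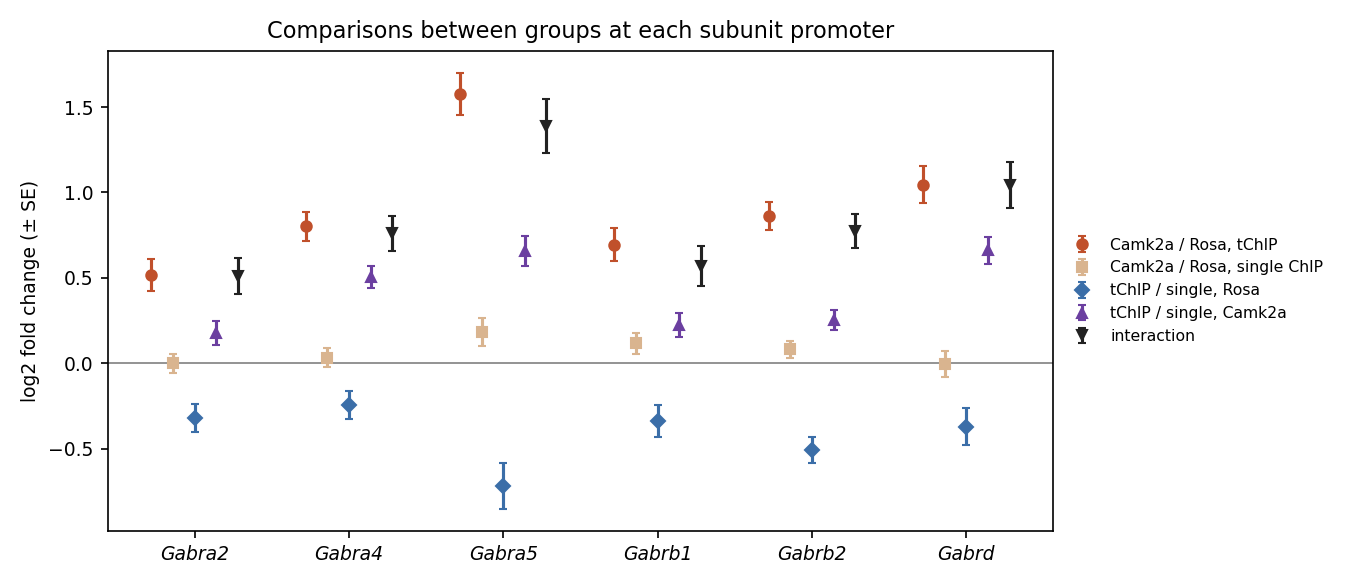
Log2 fold changes with SE (bars) at the 6 chosen promoters in the 4 comparisons between groups and in the interaction of line and kind of ChIP-Seq, 3 libraries per group. Single ChIP-Seq values lie near 0, tChIP-Seq against single ChIP-Seq is below 0 in RosaH2B-FLAG and above 0 in Camk2aH2B-FLAG, and the interaction runs from 0.51 at Gabra2 to 1.39 at Gabra5.

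To compare levels between the genes, CPM was divided by the width of the region. In both single ChIP-Seq groups the order was Gabrb1, Gabrb2, Gabrd, Gabra4, Gabra2 and Gabra5, from 25.2 to 17.4 CPM per kb in RosaH2B-FLAG and from 27.3 to 19.7 CPM per kb in Camk2aH2B-FLAG. Neighbours in this order overlapped over their 3 libraries, except Gabra2 and Gabra5 in RosaH2B-FLAG. In RosaH2B-FLAG tChIP-Seq, Gabra5 was at 10.4 ± 0.665 CPM per kb (SD, n = 3), below all libraries of the others. The means of these fell from 19.8 to 17.2 CPM per kb in the order Gabrb1, Gabra4, Gabrd, Gabrb2 and Gabra2, and neighbours overlapped. In Camk2aH2B-FLAG tChIP-Seq, Gabrd was the highest with 37.6 ± 0.888 CPM per kb, Gabra4, Gabrb2, Gabrb1 and Gabra5 lay from 32.9 to 31.2 CPM per kb and overlapped, and Gabra2 was the lowest with 24.8 ± 2.92 CPM per kb. Gabrd and Gabra2 did not overlap their neighbours there. The medians of all regions were between 23.3 and 24.5 CPM per kb in the 4 groups.

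**Figure D5:**
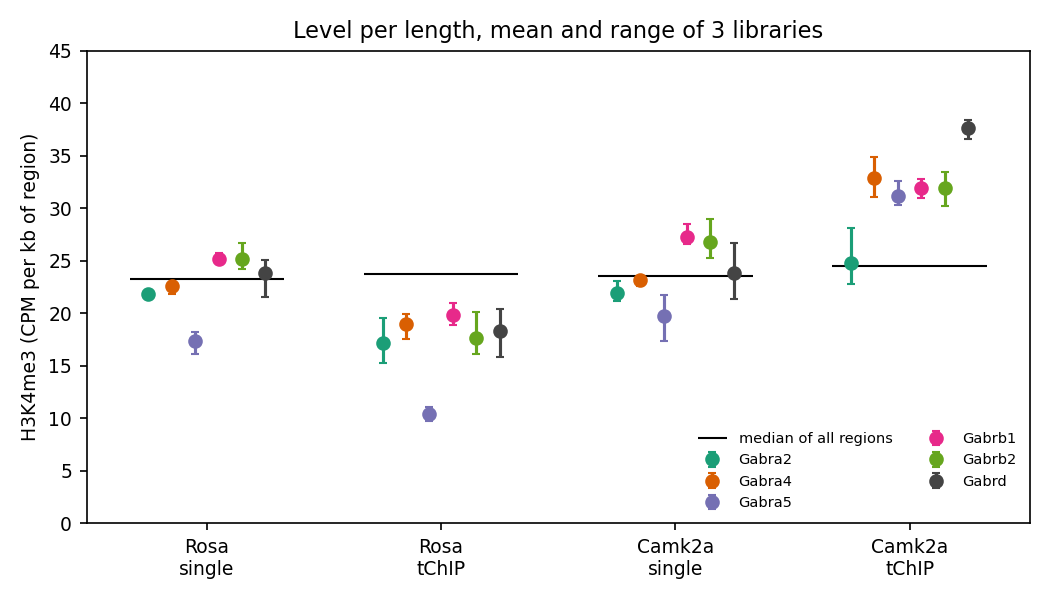
H3K4me3 per length (CPM per kb of region, y axis from 0) at the 6 chosen promoters in each group. Points are means and bars the range of 3 libraries, and horizontal lines mark the median of all regions. Gabra5 lies lowest in RosaH2B-FLAG tChIP-Seq at 10.4 CPM per kb, and Gabrd lies highest in Camk2aH2B-FLAG tChIP-Seq at 37.6 CPM per kb.

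Ratios of counts between subunit genes within a library do not depend on the normalization between libraries. They were chosen after the counts had been seen and are given without a test, since the exact permutation test of 3 against 3 libraries cannot go below p = 0.1. Of the 15 pairs, 7 did not overlap between the lines in tChIP-Seq and none were apart in single ChIP-Seq, where 53.7% and 23.2% of all pairs of the 17814 regions with counts in every library were apart. Between single ChIP-Seq and tChIP-Seq, 9 of the 15 were apart in Camk2aH2B-FLAG and 4 in RosaH2B-FLAG, beside 60.4% and 59.3% of all pairs. The count between the lines in tChIP-Seq was therefore near that of all pairs. The ratio of Gabra2 to Gabra5 counts was 1.35, 1.52 and 1.31 in Camk2aH2B-FLAG tChIP-Seq and 3.10, 2.83 and 2.74 in RosaH2B-FLAG tChIP-Seq. All 3 Camk2aH2B-FLAG libraries were lower in this ratio than the RosaH2B-FLAG libraries. The ratio of Gabra4 to Gabrd counts was 1.45, 1.68 and 1.51 in Camk2aH2B-FLAG tChIP-Seq and 1.83, 1.95 and 1.73 in RosaH2B-FLAG tChIP-Seq, which was close but apart. The ratio of Gabrb1 to Gabrb2 counts overlapped, with 0.623, 0.634 and 0.683 against 0.734, 0.673 and 0.785. Of the 7 pairs, 5 held Gabra5, and the other two were Gabrd with Gabra4 and Gabrd with Gabrb1.

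The 12 other genes that encode GABA-A receptor subunits were described by counts alone. Of these, 8 had a region at a TSS. In tChIP-Seq, 5 of the 8 were higher in Camk2aH2B-FLAG and none were lower, with log2 fold changes from −0.45 to 1.69 and a median of 0.89. Over all regions, 17% were called higher and 14.6% lower. In single ChIP-Seq none of the 8 was called by edgeR or DESeq2, and 3 had an unadjusted p under 0.05, all with a fold change above 0. Such a p was found in 22% of all regions in either direction and in 10.6% in this direction.

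Genes that anchor and move GABA-A receptors, set the chloride gradient, clear GABA or form GABA-B receptors were followed as a list of 24, and all had a region. Over all regions, 17% were called higher and 14.6% lower in Camk2aH2B-FLAG tChIP-Seq than in that of RosaH2B-FLAG. Of the list, 10 were higher and 1 lower, 13 were not called, and the median log2 fold change was 0.12. The largest increases were at Slc12a5, the neuronal chloride exporter KCC2 (1.47, SE 0.078), at Iqsec3, a partner of gephyrin at inhibitory synapses, and at Slitrk3, a postsynaptic adhesion protein of inhibitory synapses (1.15, SE 0.066). Mean levels in RosaH2B-FLAG and Camk2aH2B-FLAG were 72.1 ± 9.13 and 201 ± 12.5 CPM at Slc12a5, 39.7 ± 7.66 and 106 ± 3.33 CPM at Iqsec3, and 105 ± 3.37 and 231 ± 2.47 CPM at Slitrk3 (SD, n = 3). The lower gene was Rdx, the anchor radixin (−0.29, SE 0.071), with 148 ± 5.50 CPM in RosaH2B-FLAG and 121 ± 6.70 CPM in Camk2aH2B-FLAG (SD, n = 3). Gphn, which encodes the scaffold gephyrin, was not called, with a log2 fold change of −0.20 (SE 0.070, edgeR adjusted p = 0.0188). In single ChIP-Seq none of the 24 was called by edgeR or DESeq2, and 5 had an unadjusted p under 0.05. Such a p was found in 22% of all regions in either direction and in 11.4% with a fold change below 0. All 5, namely Rdx, Zdhhc3, Slc12a2, Gabbr2 and Gphn, had a log2 fold change below 0, from −0.18 at Zdhhc3 to −0.09 at Gphn, and that of Rdx was −0.15 (SE 0.042, edgeR adjusted p = 0.0179). Zdhhc3, Slc12a2 and Gabbr2 were named here after their values were seen.

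Nearly all regions found near the chosen ones lay at Gabrd. Within 500 kb of Gabra2, Gabra4, Gabra5 and Gabrb2 there was no region outside subunit genes. Near Gabrb1 there was 1, with a log2 fold change of −0.09 between the lines in tChIP-Seq, which was not called. Gabrd lay among 36 regions, of which 5 were higher and 3 lower, with a median log2 fold change of 0.07. Over all regions, 17% were called higher and 14.6% lower in this comparison.

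The promoters whose pattern was nearest to each chosen gene were listed by the root mean square difference of log2 CPM over the 12 libraries, each region centred on its own mean, among 11077 candidate regions at protein-coding genes. Nearest to Gabra5 were the regions at Prdm8 (0.095), Neurod1 (0.096) and Mcf2l (0.101), where the median candidate was at 0.589. The Prdm8 region also holds a TSS of A730035I17Rik, and the Neurod1 region also holds TSSs of Cerkl and Gm17325. Log2 fold changes between the lines in tChIP-Seq were 1.39 at Prdm8, 1.47 at Neurod1 and 1.55 at Mcf2l. Values near that of Gabra5 follow from the choice, since the regions were picked by their pattern in the same 12 libraries. Prdm8 and Neurod1 encode transcription factors of the neuronal lineage. Nearest to Gabrd were Cacna1b (0.083), a calcium channel of presynaptic terminals, Rhov (0.087) and Necab3 (0.089). Nearest to Gabra4 were Runx2 (0.055), Rundc3a (0.057) and Elavl2 (0.061), an RNA-binding protein of neurons. The Runx2 region also holds a TSS of Gm10497. Nearest to Gabra2 were 6230409E13Rik (0.078), Odz3 (0.079) and Mark1 (0.080). Nearest to Gabrb1 were Vgf (0.064), Dlg4 (0.065), which encodes the excitatory scaffold PSD-95, and Rbfox2 (0.067), and nearest to Gabrb2 were Olfm1 (0.071), Pdzd4 (0.077) and Ldb2 (0.080). Among the chosen genes themselves, Gabrb1 and Gabrb2 were nearest (0.113) and Gabra2 and Gabra5 farthest apart (0.388).

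Markers of cell types differed between the lines in tChIP-Seq in both directions, where 17% of all regions were called higher and 14.6% lower. All 4 excitatory neuron genes with a region were higher in Camk2aH2B-FLAG, and their summed level was between 193 and 217 CPM in RosaH2B-FLAG libraries and between 534 and 540.2 CPM in Camk2aH2B-FLAG libraries. Of 6 inhibitory neuron genes with a region, 4 were lower and 2 were not called, and the sum was between 126 and 141 CPM against 70.4 and 77.1 CPM. All 5 astrocyte genes were lower, with sums between 337 and 395 CPM against 92.8 and 97.1 CPM, and all 4 endothelial genes were lower, with sums between 97.1 and 108 CPM against 12.6 and 18.8 CPM. Of 4 oligodendrocyte genes, 3 were lower and Mbp was higher, and the sum was between 183 and 202 CPM against 154 and 164 CPM. This sum joins opposite changes. Mean levels in RosaH2B-FLAG and Camk2aH2B-FLAG were 50.8 and 115 CPM at Mbp and 74.5 and 13.2 CPM at Olig2. They were 56.1 and 28.7 CPM at Olig1 and 8.23 and 2.11 CPM at Mog. Mbp had 2 regions at a TSS, and only that with the most counts was used. None of 5 microglia genes had a region in the list. Of the 4 cortex genes, 3 were higher and Emx2 was lower, with sums between 301 and 322 CPM against 493 and 525 CPM. In single ChIP-Seq, edgeR called 2 of the 4 oligodendrocyte regions lower in Camk2aH2B-FLAG, beside 1.22% of all regions. These were Olig1 (log2 fold change −0.33, edgeR adjusted p = 0.00118) and Olig2 (−0.24, edgeR adjusted p = 0.00932). DESeq2 called neither, and no region of the other marker lists was called there.

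The genes of the cerebellum were examined because Gabra6 and Gabrd are known from granule cells there. The regions of En2 and Barhl2 were lower in Camk2aH2B-FLAG tChIP-Seq, and their sum was between 56.4 and 74.0 CPM in RosaH2B-FLAG and between 25.3 and 33.5 CPM in Camk2aH2B-FLAG. The sums in single ChIP-Seq were between 30.5 and 35.7 CPM and between 28.3 and 30.3 CPM. DESeq2 called only 1 of these 2 regions between the lines in tChIP-Seq. Barhl2 was low in single ChIP-Seq, with means of 2.89 CPM in RosaH2B-FLAG and 2.43 CPM in Camk2aH2B-FLAG. With the FLAG step it was called higher in both lines, with tChIP-Seq means of 15.8 and 9.39 CPM. En2 rose from 30.2 to 51.3 CPM in RosaH2B-FLAG. In Camk2aH2B-FLAG it had 26.6 and 21.0 CPM and was not called (edgeR adjusted p = 0.0278). The interaction of line and kind of ChIP-Seq at Barhl2 was not called (edgeR adjusted p = 0.334). Cbln3, Pcp2, Fat2, Atoh1, En1 and Barhl1 had no region, as Gabra6 had none. The part of cell type composition in the results for the subunit genes was not tested.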

How the data were processed

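H3K4me3 was measured in 12 libraries (4 groups of 3), and 12 further libraries (input and FLAG) were not analysed for want of counts. The authors deposited read counts per region, as whole numbers without normalization, on 1 list of 17993 regions. According to their methods and processing notes, reads were converted with bcl2fastq 1.8.4, reads from repeats were removed with Bowtie2 2.1.0, the rest were mapped to mm9 with Bowtie 1.0.0, duplicates were removed with SAMtools, peaks called with MACS in all replicates were kept, and reads were counted with bedtools 2.17.0. How the peak calls were merged into the list is not given in the sources used here. Reads from repeats and duplicates therefore do not enter the counts, and a region without a called peak has none.

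The counts were tested with the quasi-likelihood F test of edgeR 4.0.16 (R 4.3.3, default form) with TMM normalization, no filter and no covariate, on the 6 libraries of each comparison and on all 12 for the interaction. P-values were adjusted over all regions by Benjamini-Hochberg, and an adjusted p under 0.01 was called. The SE was obtained from the log2 fold change and the F statistic (absolute value over the root of F). CPM were calculated over the 12 libraries. Each lysate pooled 2 animals, and where libraries do not come from separate lysates, p-values measure only the spread between them. Counts per library between 1457261 and 8644574 bear on the precision.

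The genes, the lists of related genes and markers, and the tests were chosen with earlier results of these data known. The lists follow general knowledge, and the nearest patterns were taken by rule, as the 3 smallest differences per gene among regions with at least 1000 counts outside subunit genes. Some genes of the lists are not reported here and were left out of the lists' counts. The genes named from the list of 24 were the 3 with the largest called changes in each direction, of which only 1 was lower, and Gphn was named after its value was seen. Where a listed gene had more than 1 region, that with the most counts was used. Alternatives were DESeq2 size factors, plain library totals, DESeq2 1.42.0 with its Wald test, at least 10 counts in every library, dropping the 40% of regions lowest in total count, the newer quasi-likelihood form, a replicate block, a single fit of all libraries, thresholds of 0.05 and 0.001, a TSS within 1000 bp, and leaving out each library in turn. A replicate block within each line was added after the data were seen. Values were summarised with pandas 2.3.3 and figures drawn with matplotlib 3.10.9.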

Additional observations from a re-analysis of the deposited data

Results flagged for a closer look

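The difference between the lines differed between tChIP-Seq and single ChIP-Seq at all 6 chosen regions, by the interaction test of edgeR over 12 libraries at an adjusted p under 0.01. The log2 interaction was 0.51 at Gabra2, 0.76 at Gabra4, 1.39 at Gabra5, 0.57 at Gabrb1, 0.77 at Gabrb2 and 1.04 at Gabrd, and 26.9% of all regions were called in either direction.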

How the results depend on the processing

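The 6 regions were higher in Camk2aH2B-FLAG tChIP-Seq, and the interaction was called at all 6, under every alternative run. Leaving out 1 library at a time, the line difference in tChIP-Seq ranged from 0.41 at Gabra2 to 1.63 at Gabra5. In RosaH2B-FLAG, the number of regions that fell with the FLAG step was 2 in place of 6 with library totals alone and without the 40% of regions with the lowest totals, and lay between 4 and 6 without 1 library. Leaving out those 40% moved the log2 fold changes of the remaining regions by 0.15 in median in this comparison, and the cause of the lost calls was not otherwise tested. In Camk2aH2B-FLAG, the number higher lay between 4 and 5 without 1 library.

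In single ChIP-Seq, values near 0 changed sign and stayed uncalled. Gabra2 was 0.0014 with DESeq2 size factors, 0.029 with library totals, 0.0024 with the DESeq2 Wald test, 0.0027 with a minimum of 10 counts, 0.036 without the lowest 40%, 0.0013 in the single fit and between −0.040 and 0.022 without 1 library. Gabrd was 0.024 with library totals, 0.031 without the lowest 40% and between −0.098 and 0.067 without 1 library.

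Over all regions, leaving out the lowest 40% left fewer to call, with 3364 in place of 5682 calls in tChIP-Seq between the lines, 3665 in place of 8485 and 4582 in place of 8617 for the FLAG step in RosaH2B-FLAG and Camk2aH2B-FLAG, and 2840 in place of 4841 for the interaction. DESeq2 called 5563 for the FLAG step in Camk2aH2B-FLAG. In single ChIP-Seq, 386 calls became 251 with library totals, 34 with DESeq2, 104 without the lowest 40%, and 190, 164, 204, 118 and 226 without RosaH2B-FLAG replicate 2 or 3 or Camk2aH2B-FLAG replicate 1, 2 or 3.

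Libraries with the same replicate number did not deviate together, with correlations between −0.015 and 0.051 over 12165 regions, although each library correlated best with its own number in 2 of the 4 comparisons. With the replicate number as a block, the chosen regions called were again, between the lines, 6 by tChIP-Seq and 0 by single ChIP-Seq, 6 and 5 for the FLAG step in RosaH2B-FLAG and Camk2aH2B-FLAG, and 6 for the interaction, and the log2 fold change of Gabra5 in tChIP-Seq between the lines was 1.58. The calls over all regions between the lines in tChIP-Seq were 5468 with the block. The depth of RosaH2B-FLAG tChIP-Seq, with as few as 35 counts at Gabra5, limits the precision of values that rest on it.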
